A study of Rattus with 12 samples.

Results

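Lysyl oxidases and extracellular metalloproteinases make up a gene family by function that builds and cuts the extracellular matrix, and 9 of its genes were examined here: Lox, Loxl1, Loxl2, Loxl3, Mmp2, Mmp9, Mmp14, Adamts14 and Adamtsl3. The genes were taken by name from a table of 17337 gene symbols, but they were chosen with earlier results of these data known. All 9 had counts in every culture and all 9 were among the 12271 genes kept after a filter on low counts. All but Loxl3, Mmp14 and Adamtsl3 are genes that the study itself named from these same cultures, so their direction is not independent evidence.

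RNA was sequenced from 12 complex cultures that were seeded with purchased primary cortical neurons, astrocytes and oligodendrocyte precursor cells (OPCs) of Sprague Dawley rats. Fentanyl, an opioid that activates the mu-opioid receptor, was added after 24 to 26 days in vitro at 0.01 μM (low dose) or 10 μM (high dose) for 4 days, and the remaining cultures were left untreated (0 μM). There were 4 cultures per condition, which carry the letters A, G, M and P (untreated), B, H, N and Q (low dose) or C, I, O and R (high dose). The study speaks of biological replicates, but whether the cultures came from separate preparations is not stated. Each p-value therefore sets a difference against the spread between these cultures only.

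Lysyl oxidases are secreted copper-dependent enzymes that oxidise lysine side chains of collagen and elastin, the step from which the crosslinks of the fibres form. Matrix metalloproteinases are zinc-dependent enzymes that cut collagens, other matrix proteins and proteins at the cell surface, and ADAMTS enzymes are related secreted proteases with thrombospondin repeats. In the brain, fibroblasts of the meninges and cells of the vessel wall are known sources of fibrillar collagen and its crosslinking enzymes, while glia and neurons release Mmp2 and Mmp9, enzymes known for their part in remodelling the matrix around synapses.

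The total count per culture lay between 12059872 and 24813893. In untreated culture G, the neuronal splicing factor Rbfox3 had 20 counts against 714 to 2019 in the other cultures. All 10 neuronal markers read had their lowest count in G, such as Snap25 with 297 counts against 7486 to 16535 in the others. The culture thus held little RNA of the neurons that the label names. The letters form sets of neighbours (A-B-C, M-N-O, P-Q-R and G-H-I), each with an untreated, a low dose and a high dose culture, and neither the labels nor the study's methods say what they stand for. Across genes, the Spearman correlation between cultures was 0.994 to 0.996 within A-B-C and 0.992 to 0.997 within P-Q-R, while M was closer to I (0.991) than to N (0.979). G was closer to N (0.873) than to H (0.831) or I (0.843), the cultures of its own set. Differences within the letter sets are given as values, and the sets enter a test only as a block in alternative models. In bulk RNA, fewer cells of a type and less RNA per cell cannot be told apart.

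Levels are given as CPM (counts per 1000000 after scaling for library composition), in the order A, G, M, P for untreated, B, H, N, Q for the lower dose and C, I, O, R for the high one. They depend on transcript length, so they were compared between cultures and not between genes.

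Among the lysyl oxidases, Lox, the founding enzyme of the family, varied most between cultures. Lox was at 35.1, 24.4, 8.09 and 0.166 CPM in the untreated cultures, at 29.4, 0.927, 59.2 and 0.963 CPM at the low dose and at 22.9, 1.0, 5.67 and 0.496 CPM at the high dose. All 3 conditions held cultures near or below 1 CPM and cultures above 5 CPM, and the conditions overlapped over nearly their whole range. Cultures A, B and C were high at every dose and P, Q and R were low at every dose. The lowest value, in untreated culture P, rests on 2 counts (95% exact Poisson interval 0.242 to 7.22, counting error only), which is under the 3 counts taken as the floor at this depth, whereas culture N had 907 counts.

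Loxl1, a lysyl oxidase known for its part in elastic fibre upkeep, was at 5.49, 97.3, 6.72 and 10.1 CPM in the untreated cultures, at 7.08, 6.18, 23.3 and 13.8 CPM at the low dose and at 6.69, 6.62, 14.8 and 11.5 CPM at the high dose. Culture G stood alone, at 13.1 times the mean of the other untreated cultures, and without it the untreated mean was 7.45 ± 2.41 CPM (SD, n = 3) against 29.9 ± 44.96 CPM (SD, n = 4) with it.

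Loxl2, which acts on basement membrane collagen, was at 13.9, 55.6, 14.7 and 7.15 CPM in the untreated cultures, at 15.1, 6.42, 63.1 and 5.78 CPM at the low dose and at 10.96, 6.77, 10.6 and 6.53 CPM at the high dose. G among the untreated and N among the low dose cultures were the high ones, and the other 10 cultures lay between 5.78 and 15.1 CPM. The high dose held no such culture. Its 4 values averaged 8.71 ± 2.38 CPM (SD, n = 4), below the untreated mean of 22.8 ± 22.1 CPM (SD, n = 4) and the low dose mean of 22.6 ± 27.3 CPM (SD, n = 4), whose spreads were about as large as the means.

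Loxl3, a further member of the same enzyme family, was at 11.8, 38.8, 11.5 and 10.6 CPM in the untreated cultures, at 12.9, 9.88, 21.3 and 12.8 CPM at the low dose and at 12.7, 8.27, 8.06 and 10.1 CPM at the high dose. It was the steadiest of the lysyl oxidases, with 8.06 to 12.9 CPM in the 10 cultures other than G and N. The plot of levels by culture shows all 9 genes.

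**Figure D1:**
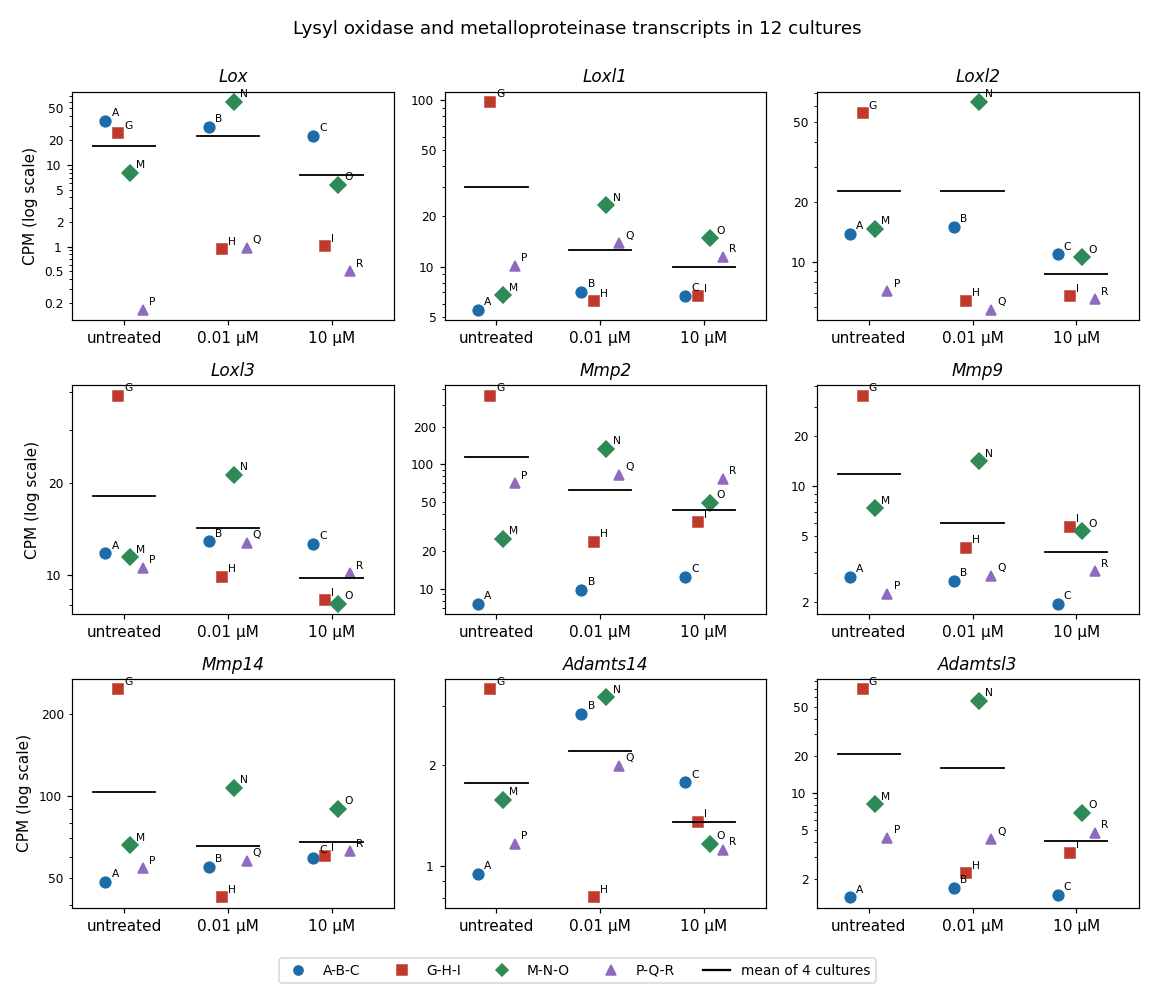
Levels of the 9 genes in CPM on a log axis for each of the 12 cultures, by fentanyl dose, with the culture's letter beside each point, its letter set as colour and shape and the mean of 4 cultures as a bar. Untreated culture G is the highest for 7 of the 9 genes and low dose culture N for Lox and Loxl2, and no gene has conditions that do not overlap.

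Among the matrix metalloproteinases, Mmp2 (gelatinase A) had the widest span. Mmp2 was at 7.55, 355 and 25.1 CPM in untreated A, G and M and at 70.5 CPM in untreated P, at 9.77, 23.8, 133 and 82.1 CPM at the low dose and at 12.4, 34.0, 49.1 and 76.2 CPM at the high dose. Apart from G and N, the cultures were ordered by their letters more than by dose, with A, B and C between 7.55 and 12.4 CPM and P, Q and R between 70.5 and 82.1 CPM. This order was the reverse of that of Lox, which was high in A, B and C and low in P, Q and R.

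Mmp9 (gelatinase B) was at 2.83, 35.1, 7.34 and 2.25 CPM in the untreated cultures, at 2.69, 4.26, 14.2 and 2.89 CPM at the low dose and at 1.95, 5.67, 5.35 and 3.06 CPM at the high dose. G was again the highest and N the next, and without them the values lay between 1.95 and 7.34 CPM.

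Mmp14, a membrane-bound metalloproteinase that activates the proenzyme of Mmp2, was at 48.6, 246, 66.1 and 54.3 CPM in the untreated cultures, at 55.1, 42.5, 107 and 57.9 CPM at the low dose and at 59.4, 60.4, 90.0 and 62.7 CPM at the high dose. Of the matrix metalloproteinases it varied least relative to its level outside G and N, from 42.5 to 90.0 CPM. The untreated mean was 104 ± 95.2 CPM (SD, n = 4) with G and 56.3 ± 8.94 CPM (SD, n = 3) without it, which moved it from above to below the low dose mean of 65.7 ± 28.6 CPM and the high dose mean of 68.1 ± 14.7 CPM (SD, n = 4 each).

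Adamts14, which trims the amino-terminal propeptide from fibrillar procollagen, was the gene with the fewest counts, 13 to 52 per culture. Adamts14 was at 0.944, 3.37, 1.58 and 1.16 CPM in the untreated cultures, at 2.85, 0.803, 3.20 and 1.99 CPM at the low dose and at 1.78, 1.35, 1.16 and 1.12 CPM at the high dose. The low dose cultures B, N and Q were above every high dose culture, but H was below all of them. The 13 counts of culture H carry a 95% exact Poisson interval of 6.92 to 22.2 counts.

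Adamtsl3, a secreted ADAMTS-like protein that lacks the protease domain, was at 1.42, 68.8, 8.09 and 4.32 CPM in the untreated cultures, at 1.69, 2.22, 55.8 and 4.20 CPM at the low dose and at 1.48, 3.26, 6.90 and 4.71 CPM at the high dose. G was at 14.9 times the mean of the other untreated cultures and N at 20.6 times the mean of the other low dose cultures. The 10 other cultures lay between 1.42 and 8.09 CPM at all 3 doses.

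Whether fentanyl changed these transcripts was first asked of the low dose against untreated. No member passed the thresholds, which were an adjusted p under 0.05 in edgeR's quasi-likelihood test and a log2 fold change over 0.5 up or down. The count of members called was 0 of 9, as it was for 0% of the 12271 genes tested. At an unadjusted p under 0.05, edgeR counted 0 members higher and 0 lower, against 0.546% of all genes higher and 0.196% lower, and DESeq2 also called 0 members and had 0 at this unadjusted p. The 3 comparisons share cultures, so their values are given side by side.

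All 9 log2 fold changes of the low dose against untreated were above 0 in the edgeR model, which held the 3 conditions and 1 factor of unwanted variation. Their median was 0.34, where the median of all genes was 0.01 and 53.4% of all genes were above 0. The largest was that of Adamtsl3, at 1.03 ± 0.82 (SE), followed by Adamts14 at 0.72 ± 0.40 and Loxl2 at 0.56 ± 0.55. Lox was at 0.51 ± 1.53, Mmp2 at 0.34 ± 0.87, Loxl1 at 0.30 ± 0.40, Mmp9 at 0.24 ± 0.38, Loxl3 at 0.14 ± 0.24 and Mmp14 at 0.02 ± 0.17. Every adjusted p was 0.99997 (edgeR, Benjamini-Hochberg over 12271 genes).

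These signs depended on the model. Without a model, the difference of mean log2(CPM + 1) between the low dose and the untreated cultures was below 0 for 8 of the 9 genes and above 0 for Adamts14 alone (0.22). With no factor in edgeR, 2 fold changes were above 0 and 7 below 0, with a median of −0.37. Without culture G, all 9 were above 0 with a median of 0.80, and without culture N, 4 were above 0 and 5 below 0 with a median of −0.13. The exact two-sided permutation test over 70 arrangements of 4 against 4 cultures gave an unadjusted p of at least 0.6 for each member. The smallest possible p is 0.0286, and only 50 of all genes had a p under 0.05 in this test. After adjustment over all genes, even the smallest possible p could not pass. The adjusted p of 1 for every member therefore carries no information about the members. The conditions overlapped for all 9 members, and did not overlap for 0.407% of all genes.

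The precision differed between the genes. For Mmp14 the 95% interval of the fold change ran from −0.35 to 0.39 on the log2 scale, and for Loxl3 from −0.39 to 0.66. For Lox it ran from −2.90 to 3.91, so a change of several fold in either direction was not detectable with these cultures.

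Within the letter sets, no member was higher at the low dose in all 4 sets and none was lower in all 4, against 4.06% and 5.28% of all genes. In set M-N-O all 9 genes were higher at the low dose, with a median difference of 1.65 in log2(CPM + 1), and in set G-H-I all 9 were lower, with a median difference of −2.93. In the sets A-B-C and P-Q-R, 7 of the 9 were higher, with median differences of 0.16 and 0.25. Of all genes, 49.3% to 51.0% were higher at the low dose in each set. The plot of differences within letter sets shows that the sets with the largest median differences at the low dose are those that hold G and N. For Adamts14, however, the difference was larger in A-B-C (0.98) than in M-N-O (0.70).

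**Figure D2:**
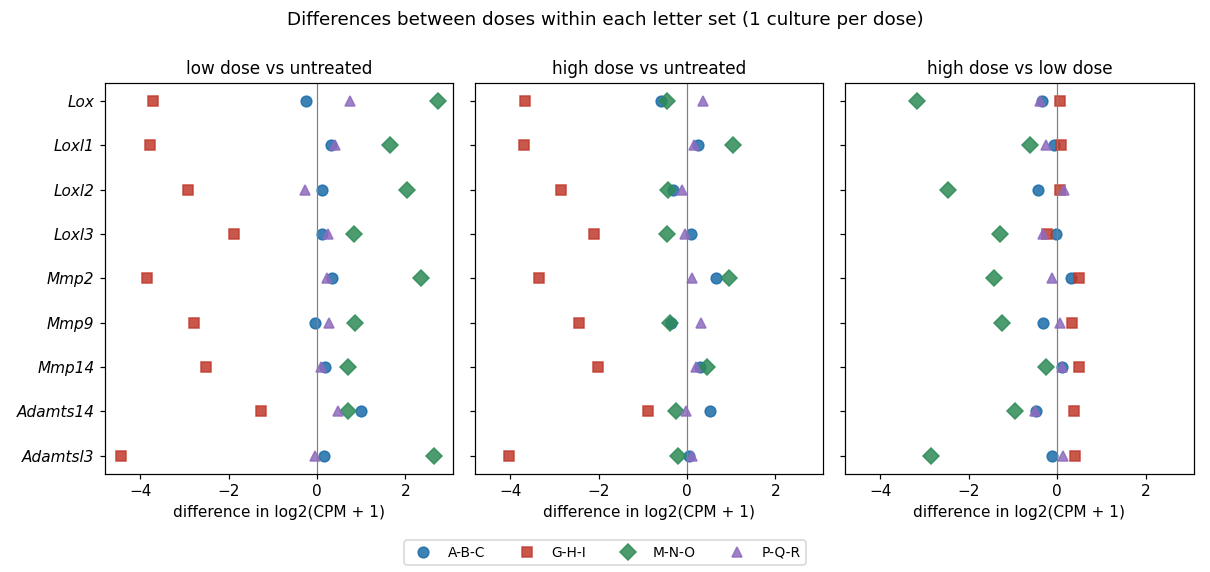
Difference in log2(CPM + 1) between 2 doses within each letter set, 1 culture per dose, for the 9 genes in the 3 comparisons, with colour and shape for the letter set. All 9 genes lie below 0 in set G-H-I against untreated and above 0 in set M-N-O at the low dose against untreated. In that low dose comparison, the differences in the sets A-B-C and P-Q-R lie nearer to 0. The exception is Adamts14, at 0.98 in A-B-C against 0.70 in M-N-O.

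A model with the letter sets as a block and culture G left out was also fitted. Of the members, 3 were then higher at the low dose at an unadjusted p under 0.05 and 0 were lower, against 4.35% and 3.19% of 12337 genes. These were Loxl1 at 0.83 ± 0.25 (log2 fold change, SE), Mmp2 at 0.96 ± 0.40 and Adamts14 at 0.96 ± 0.38, each with an adjusted p of 0.644 (edgeR). No member and 0 genes in all were called in this model. With N left out as well, Loxl1 alone was higher at an unadjusted p under 0.05, at 0.55 ± 0.20 (adjusted p = 0.951, edgeR), and 0 members were lower, against 2.11% and 2.86% of 12302 genes.

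The high dose was compared with untreated next. Of the 9 members, 0 were called, as were 0% of all genes, and 0 were higher or lower at an unadjusted p under 0.05 in edgeR, against 0.921% of all genes higher and 0.269% lower. DESeq2 called 0 members and had 0 at this unadjusted p. The log2 fold changes of 3 members were above 0 and those of 6 below 0, with a median of −0.18 against 0.00 for all genes. Among the crosslinking enzymes, Lox was at −0.98 ± 1.58 (SE), Loxl2 at −0.55 ± 0.56, Loxl3 at −0.36 ± 0.24 and Loxl1 at 0.01 ± 0.39. Among the metalloproteinases, Mmp14 was at 0.09 ± 0.17, Mmp2 at −0.03 ± 0.88 and Mmp9 at −0.18 ± 0.38, while Adamts14 was at 0.03 ± 0.40 and Adamtsl3 at −0.28 ± 0.83. Every adjusted p was 0.9999 (edgeR).

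Without a model, the difference of mean log2(CPM + 1) between the high dose and untreated was below 0 for all 9 genes, from −0.17 for Adamts14 to −1.09 for Lox. Without culture G, 5 of these differences were above 0, those of Mmp2 (0.54), Loxl1 (0.33), Mmp14 (0.26), Adamts14 (0.079) and Mmp9 (0.015). The smallest exact permutation p was 0.143 (two-sided, unadjusted), that of Loxl2. Every adjusted p was 1, but only 84 of all genes had an unadjusted p under 0.05 in this test. No gene could therefore have passed after adjustment here either. The conditions overlapped for all members and did not overlap for 0.685% of all genes. Loxl2 was the only member that was lower at the high dose in all 4 letter sets, with differences in log2(CPM + 1) of −2.86 in G-H-I, of −0.44 in M-N-O, −0.31 in A-B-C and −0.11 in P-Q-R, and no member was higher in all 4, where 5.22% of all genes were lower and 5.22% higher in all 4. With 9 members, 1 such gene is near what these shares give.

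In the model with letter sets and without G, 2 members were higher at the high dose at an unadjusted p under 0.05 and 0 were lower, against 5.76% and 3.67% of all genes. These were Mmp14, at 0.38 ± 0.13 (SE, adjusted p = 0.410, edgeR), and Loxl1, at 0.56 ± 0.25 (adjusted p = 0.518, edgeR). With N left out as well, Mmp14 was at 0.36 ± 0.09, Mmp2 at 0.61 ± 0.15 (adjusted p = 0.132 for both, edgeR) and Loxl1 at 0.55 ± 0.18 (adjusted p = 0.264, edgeR). These were the 3 members higher at an unadjusted p under 0.05 in that model and 0 were lower, against 6.78% and 4.18% of all genes. In the sets without G the same genes were higher at the high dose in each, by 0.28, 0.20 and 0.44 for Mmp14, by 0.65, 0.11 and 0.94 for Mmp2 and by 0.25, 0.16 and 1.04 for Loxl1 in log2(CPM + 1) in A-B-C, P-Q-R and M-N-O. In G-H-I all of them were lower at the high dose, with differences of −2.01, −3.35 and −3.69. The 3 genes were picked by models fitted to the same cultures, so the differences within sets are not separate evidence.

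The high dose was also compared with the low dose, a comparison that does not contain culture G except through the shared estimates of the model. Of the 9 members, 0 were called, as were 0% of all genes, and 0 were higher or lower at an unadjusted p under 0.05 in edgeR, against 0.579% of all genes higher and 0.595% lower. The log2 fold changes of 8 members were below 0, with a median of −0.50 against −0.01 for all genes, and Mmp14 alone was above 0, at 0.07 ± 0.16 (SE). Loxl3 and Loxl2 came nearest to the threshold, at −0.50 ± 0.23 and −1.12 ± 0.56 (adjusted p = 0.9999 for both and for all other members, edgeR). DESeq2 gave these 2 genes an unadjusted p under 0.05, as it did 0.929% of all genes in that direction, and called 0 members.

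Lox was at −1.48 ± 1.59, Adamtsl3 at −1.32 ± 0.83, Adamts14 at −0.69 ± 0.38, Mmp9 at −0.42 ± 0.38, Mmp2 at −0.37 ± 0.84 and Loxl1 at −0.29 ± 0.39 in the high dose against the low dose. Culture N carried much of this. Without N, Lox was at −0.49, Loxl2 at −0.21, Loxl3 at −0.36 and Adamts14 at −0.56, while Adamtsl3 stood at 0.27 and Mmp9 at 0.03, and the median of the 9 was −0.12. The smallest exact permutation p was 0.143 (two-sided, unadjusted), that of Loxl3, and the conditions overlapped for all members, against 1.19% of all genes without overlap.

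Loxl3 was the only member lower at the high than at the low dose in all 4 letter sets, with differences in log2(CPM + 1) of −1.30 in M-N-O, −0.31 in P-Q-R, −0.23 in G-H-I and −0.03 in A-B-C, and none was higher in all 4, where 11.1% of all genes were lower and 11.7% higher. In the model with letter sets and without G, 2 members were lower at an unadjusted p under 0.05 and 0 were higher, against 5.85% and 7.75% of all genes. These were Lox, at −1.68 ± 0.62 (SE, adjusted p = 0.293, edgeR), and Loxl3, at −0.51 ± 0.19 (adjusted p = 0.306, edgeR). With N left out as well, 0 were lower and 1 was higher, Mmp14 at 0.26 ± 0.09 (adjusted p = 0.224, edgeR), against 5.63% and 9.09% of all genes. The model without G alone called 14 genes in all between the doses and 15 between the high dose and untreated, none of them a member. The plot of fold changes sets the models side by side.

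**Figure D3:**
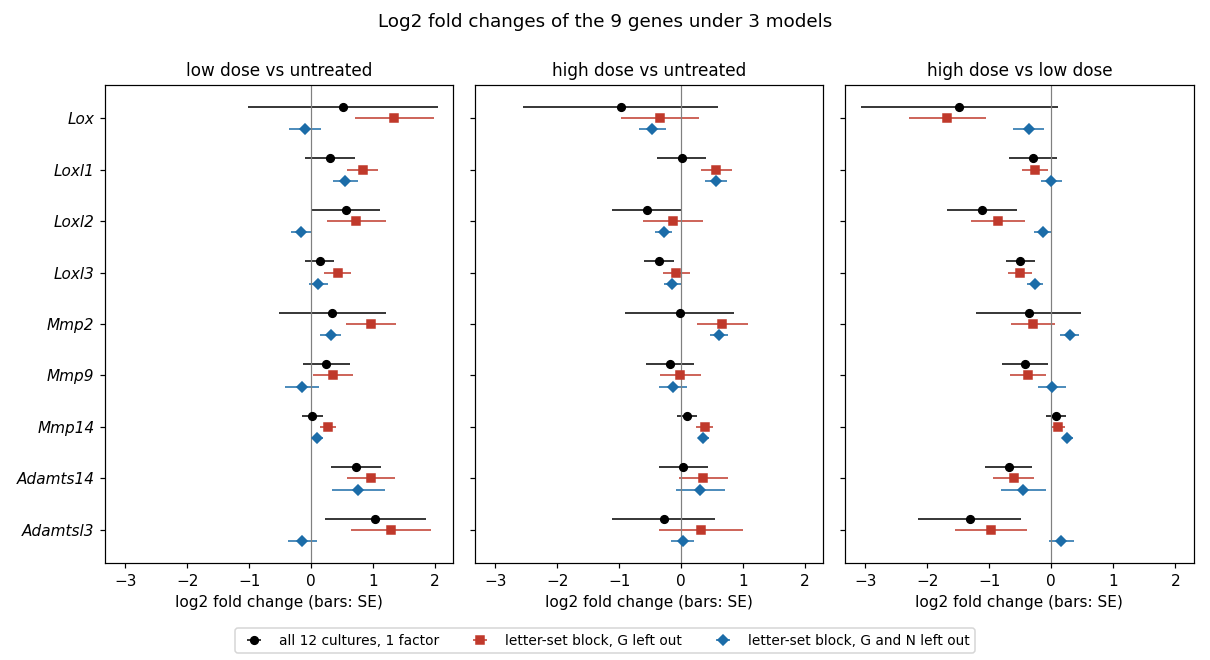
Log2 fold changes of the 9 genes with their standard errors (bars) in the 3 comparisons, from the edgeR model of all 12 cultures with 1 factor (black circles), the model with letter sets as a block and G left out (red squares) and the same with G and N left out (blue diamonds). The bars of Lox, Mmp2 and Adamtsl3 are the longest in the model of all cultures, and several genes, such as Adamtsl3 at the low dose, change sign once N is left out.

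To describe how the genes varied, the sum of squares of log2(CPM + 1) was divided between letter set, dose and the rest. Over all 12 cultures, dose held between 1.24% (Mmp2) and 22.4% (Loxl3) of a gene's variation, and letter set between 5.17% (Adamts14) and 67.8% (Lox). The rest held the largest share for Adamts14 (80.6%), Loxl1 (76.1%), Loxl3 (71.5%), Mmp14 (71.0%), Loxl2 (56.0%) and Adamtsl3 (51.7%). Without the set of G (9 cultures), letter set held 82.8% for Lox, 82.1% for Mmp2, 79.6% for Mmp9, 71.1% for Mmp14 and 67.9% for Adamtsl3.

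Adamts14 and Loxl3 were the exceptions among the 9 cultures. Dose held 75.3% for Adamts14 and 48.9% for Loxl3, and letter set 8.74% and 5.27%. For Adamts14 the low dose culture was above both others in each of P-Q-R, M-N-O and A-B-C, but in set G-H-I the low dose culture H was the lowest. These shares are descriptions of few cultures and were not tested.

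**Figure D4:**
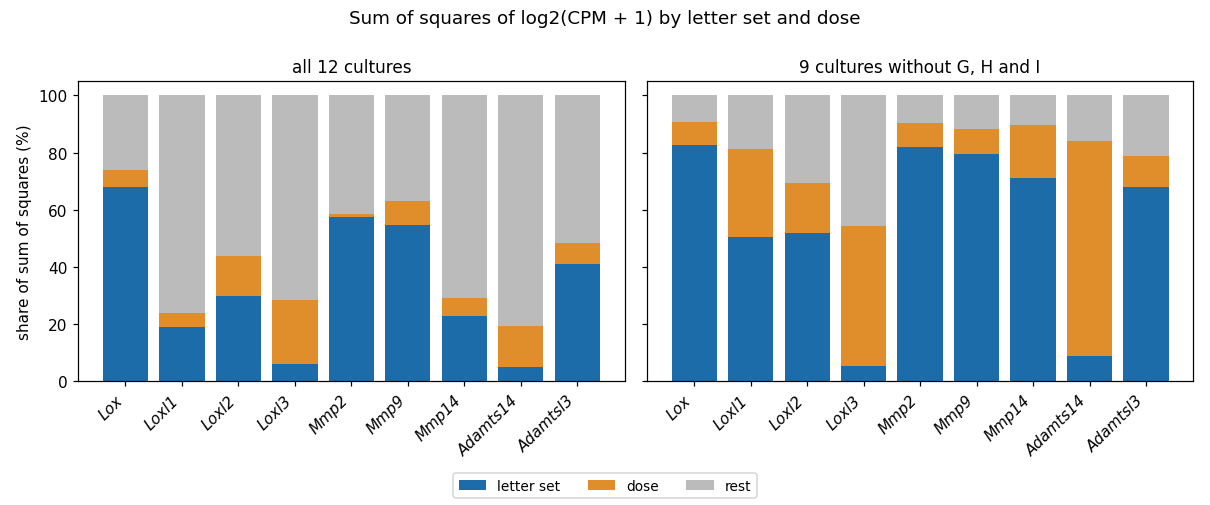
Share of the sum of squares of log2(CPM + 1) in percent that goes with letter set, dose and the rest, for the 9 genes over all 12 cultures (left) and over the 9 cultures without G, H and I (right). Letter set is the largest share for Lox, Mmp2 and Mmp9 in both panels, and dose is the largest share for Adamts14 and Loxl3 on the right.

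The genes did not move as 1 block across cultures. Of the 36 pairs of members, 17 had a Spearman correlation of log2(CPM + 1) above 0.5 over the 12 cultures and 2 were below 0, with a median of 0.47. These correlations are descriptions over cultures that share letter sets and include G and N. The closest pairs were Loxl1 with Mmp2 (0.85) and Lox with Loxl2 (0.84), and the lowest was Lox with Mmp2 (−0.19).

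The other genes of matrix crosslinking and turnover were taken from lists of 77 genes, of which 66 were in the table and 56 were kept. Of the 56, 0 were called in any comparison (edgeR). At an unadjusted p under 0.05, 2 were higher and 0 lower at the low dose than in untreated, 0 were higher or lower at the high dose than in untreated, and 0 were higher and 1 lower at the high than at the low dose. With letter sets as a block and without G, 10, 6 and 1 of them were higher and 0, 3 and 9 lower at this p in the same order of comparisons, and 0 were called. Of all genes, 4.35%, 5.76% and 7.75% were higher and 3.19%, 3.67% and 5.85% lower in that model, and no test set the lists against them.

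Of the enzymes akin to the members, Loxl4, the remaining lysyl oxidase, averaged 6.66 ± 10.3, 2.78 ± 3.72 and 2.20 ± 0.65 CPM (SD, n = 4) in untreated, low dose and high dose cultures, with 21.99 CPM in G and 8.35 CPM in N against 0.748 to 3.15 CPM elsewhere. Of 8 kept metalloproteinases outside the members, 4 were above and 4 below 0 at the low dose against untreated, and the most abundant, the membrane-bound Mmp15 and Mmp24, were at −0.03 ± 0.41 and 0.03 ± 0.22 (log2 fold change, SE). Mmp24, which neurons express, was lowest in G, at 25.4 CPM against 77.2 CPM in N and 79.4 to 151 CPM in the others, unlike every member.

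Of 13 further kept ADAMTS and ADAMTS-like genes, 6 were above and 7 below 0 at the low dose, and Adamts1 and Adamts4, proteases of the proteoglycan aggrecan, were at −0.16 ± 0.18 and −0.16 ± 0.69. Adamts1 reached 522 CPM in G against 47.5 to 141 CPM in all others. Of 6 kept inhibitors, 2 were above and 4 below 0 at the low dose, with A2m, a broad protease trap, at 0.38 ± 0.43 and Timp2, which binds both Mmp2 and Mmp14, at −0.19 ± 0.37. Of 16 genes of collagen processing before crosslinking, 11 were above and 5 below 0, with the median at 0.08, and P4hb and Ppib, folding enzymes of the endoplasmic reticulum, were at −0.03 ± 0.19 and 0.15 ± 0.10.

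Of 12 substrates and scaffolds of lysyl oxidases, 10 were above 0 at the low dose against untreated (median 0.72), 4 at the high dose against untreated (median −0.16) and 1 at the high against the low dose (median −0.77). At the low dose, elastin (Eln) was at 2.56 ± 1.03 (SE, adjusted p = 0.99997, edgeR) and the fibrillar collagen Col3a1 at 2.43 ± 1.09 (adjusted p = 0.99997, edgeR), both with an unadjusted p under 0.05. Fbln5, a scaffold protein of elastic fibres, was at −1.16 ± 0.42 in the high against the low dose (adjusted p = 0.9999, edgeR), the 1 gene under that unadjusted p. In all 3 genes N was the highest culture or next to G, with 69.4 CPM of Eln, 233 CPM of Col3a1 and 152 CPM of Fbln5 in N and at most 9.48, 22.4 and 69.3 CPM in the cultures other than G and N.

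Collagen Col1a2 and fibronectin (Fn1), the most abundant of these substrates, were at 1359 and 1117 CPM in N and at 691 and 1047 CPM in G, against at most 246 and 249 CPM elsewhere. The cultures that were high for most members were also high for these substrates. At the low dose their log2 fold changes were 1.12 ± 0.87 and 0.90 ± 0.79 (SE).

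Markers of cells that were not seeded, but that primary cortical preparations can hold, were read in the same cultures. Of 12 fibroblast markers 7 were kept, and their summed level was 426 CPM in G and 418 CPM in N against 27.2 to 156 CPM in the other 10 cultures. By condition it ranged from 27.2 to 426 CPM in untreated, from 40.9 to 418 CPM in low dose and from 31.5 to 154 CPM in high dose cultures. Their mean log2(CPM + 1) was 5.39 in G, 3.44 in N and 1.84 to 3.02 in the others. The markers were not alike in N: the proteoglycan Dcn had 1053 counts in G, 9 in N and 9 to 33 in the others. Slc6a13, Lum and Foxc1, which the filter did not keep, had 617, 537 and 483 counts in G and 0, 3 and 8 in N. Islr, by contrast, had 1769 counts in G, 356 in N and 32 to 295 in the others, and the proteoglycan Ogn had its highest count, 5584, in N. Ogn alone made up 364 of the 418 CPM summed in N, against 146 of the 426 CPM in G, and was at most 106 CPM elsewhere. The summed level in N was thus mostly that of 1 gene. Foxc2 was at 0 in 6 cultures and Aspn in 4.

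Of 10 markers of mural cells, the contractile cells around vessels, 7 were kept, and their sum was 111 CPM in G and 348 CPM in N, within the 36.8 to 650 CPM of the other cultures. Their mean log2(CPM + 1) was highest in N, at 4.06, against 2.67 in G and 1.96 to 3.61 in the others. The smooth muscle actin Acta2 had 1676 counts in N, 19 in G and 4 to 249 in the others, whereas Tagln had 2775 counts in N, 163 in G and 7700 to 10254 in A, B and C. Pdgfrb, on the same list, was high in both, with 1108 counts in G, 523 in N and 109 to 232 in the others. All 9 microglial markers were kept, and their sum was 1078 CPM in G and 1361 CPM in N against 39.5 to 929 CPM elsewhere, with P, Q and R the lowest. All 10 neuronal markers summed to 242 CPM in G and to 2956 to 4305 CPM in the 10 cultures other than G and N. Whether these cells had a part in the levels of the 9 genes was not tested.

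The summed level of 4 kept endothelial markers of 8 was 32.5 CPM in G, 12.1 CPM in N and 6.85 to 13.99 CPM in the others, and Erg was at 0 in 7 cultures. Cdh5, which the filter did not keep and the sum leaves out, had 439 counts in G and 0 to 8 in every other culture. Pecam1, which was kept, had 12 counts in G and 2 to 82 in the other cultures. The markers of the seeded glia spanned wide ranges in every condition, 2215 to 11856 CPM for 9 astrocyte markers, 260 to 1097 CPM for 5 kept OPC markers and 2945 to 25637 CPM for 8 oligodendrocyte markers in the 10 cultures other than G and N. None of 24 exact two-sided permutation tests of the marker scores between conditions passed. Their smallest p was 0.2 and their smallest adjusted p 0.947. With a smallest possible p of 0.0286, no single list could have passed after adjustment over 24 tests. The heat map sets the 9 genes beside 3 of the marker lists.

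**Figure D5:**
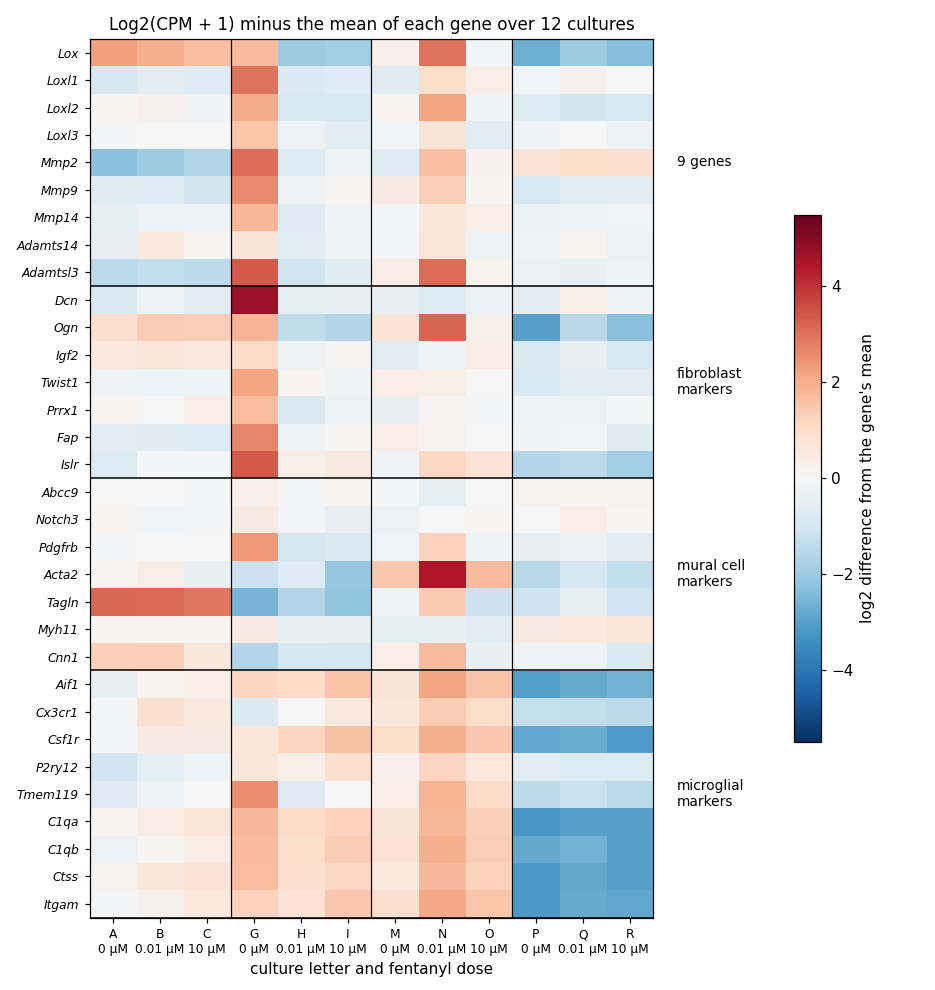
Log2(CPM + 1) minus each gene's mean over the 12 cultures, for the 9 genes and the markers of fibroblasts, mural cells and microglia, with cultures ordered by letter set and red for values above and blue for values below the gene's mean. The 9 genes are above their means in both G and N, while the fibroblast marker Dcn is at 68.3 CPM in G and at most 2.27 CPM in any other culture.

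The genes whose pattern over the 12 cultures was most like that of each member were found by Spearman correlation of log2(CPM + 1) among all genes kept. They describe likeness over cultures that share letter sets, G and N, with no p-value. Mmp2 had 190 genes above 0.9, led by Chst9 (0.99), Kif18b and Kif2c (0.98 both), the latter pair motor proteins of the mitotic spindle. Adamtsl3 had 105, led by Slitrk6 (0.98), the cyclin Ccna2 and the spindle protein Ckap2 (0.97 both).

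Mmp14 had 34 genes above 0.9, led by Rest, a repressor of neuronal genes (0.99), Vsig10 and Furin, a proprotein convertase (0.97 both). Lox was most like Dennd2c, Fam46b and the Wnt receptor Fzd4 (0.94 each), Loxl1 like Heatr6 (0.95), the chemokine Cxcl12 and the exonuclease Exo1 (0.94 both), and Loxl2 like Maml1 (0.93), Tinagl1 (0.92) and Aff1 (0.91). Loxl3 was most like the inhibitor A2m and the integrin Itgb5 (0.94 both) and the actin-binding Cald1 (0.94). Mmp9 was most like LOC681383 and Nucb2 (0.94 both) and the natriuretic peptide receptor Npr3 (0.93). Adamts14 had 0 genes above 0.9 and was most like Acss3 and Cyp4v3 (0.88 both) and the zinc transporter Slc39a8 (0.87).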

How the data were processed

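Poly(A)-enriched RNA of 12 rat cultures was sequenced. The authors used STAR, with build rn6, and featureCounts, and the deposited values are raw read counts per gene symbol, with no normalization. The kit does not mark strand, so reads of overlapping genes on opposite strands cannot be told apart.

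Counts were scaled by TMM and filtered by filterByExpr in edgeR 4.0.16 (R 4.3.3, limma 3.58.1), which kept 12271 genes. The study names RUVseq and edgeR but not the procedure, so 1 RUVs factor was estimated with the cultures of a condition as replicates and every kept gene as a control (41.0% of the variation within conditions). The 3 conditions and this factor were fitted to all 12 cultures, tested by quasi-likelihood and adjusted by Benjamini-Hochberg over all genes kept. Standard errors come from the test statistics and 95% intervals from their degrees of freedom. Fold changes without a model are differences of mean log2(CPM + 1). Cultures were assigned to conditions by their labels. The procedure was tested on simulated counts, where recovery of planted changes was required only with the spread set small. This does not show what could be detected in these cultures. Total counts were 12059872 to 24813893 per culture, and intervals on counts cover counting error only.

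Alternatives were no factor, 2 or 4 RUVs factors, letter sets as a block with and without G, DESeq2 1.42.0 or its size factors, no filter on low counts, a pseudocount of 0.1 and each culture left out in turn. The 4 factors and the models without both G and N were added after seeing the data. The members and lists were chosen with earlier results of these data known. Genes named beside the members are the 3 most correlated with each member and, from each list, those with an unadjusted p under 0.05 and the 2 highest in mean CPM. Markers were named as examples after their values were seen. Gene symbols are those of the table, and no transcript lengths or sequences were used here.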

Additional observations from a re-analysis of the deposited data

Results flagged for a closer look

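A culture stood apart from the other 3 of its condition in 10 of 27 groups (9 genes, 3 conditions). Its gap to the nearest culture was a larger share of the group's range than Dixon's 95% critical value. For normally distributed values chance gives about 5% of groups. The rule was applied to CPM and not to log values, on which a high culture stands out less, so the 10 groups cannot be read against this 5%. In 6 of them the culture was untreated G. The share of the range was 0.9493 for Loxl1 (97.3 CPM against a nearest value of 10.1 CPM), 0.8447 for Loxl2 (55.6 against 14.7 CPM) and 0.956 for Loxl3 (38.8 against 11.8 CPM). It was 0.845 for Mmp9 (35.1 against 7.34 CPM), 0.9112 for Mmp14 (246 against 66.1 CPM) and 0.901 for Adamtsl3 (68.8 against 8.09 CPM).

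In 3 groups it was low dose culture N, with 0.8377 for Loxl2 (63.1 against 15.1 CPM), 0.8632 for Mmp9 (14.2 against 4.26 CPM) and 0.9537 for Adamtsl3 (55.8 against 4.20 CPM). The remaining group was Mmp14 at the high dose, where culture O gave 0.89 (90.0 against 62.7 CPM). The groups are not independent, since the same cultures recur in them.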

How the results depend on the processing

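The 27 log2 fold changes (9 genes, 3 comparisons) were recomputed under 22 alternatives, and 0 was called in any of them (edgeR or DESeq2). The smallest adjusted p was 0.0555 (edgeR), that of Loxl2 in the high against the low dose with 4 RUVs factors. Genes outside the members were called in some alternatives. With 4 RUVs factors these were 0 of 12271 genes at the low dose vs. untreated, 39 at the high dose vs. untreated and 113 at the high vs. low dose. With the block and without both G and N they were 0, 88 and 35 of 12302 genes in the same order. In 7 of the 27 the direction was kept throughout, namely Adamts14 at the low dose vs. untreated, Loxl2 and Loxl3 at the high dose vs. untreated, and Lox, Loxl2, Loxl3 and Adamts14 at the high vs. low dose. The cause of the changes of direction was not tested. The lowest counts behind a value were 2 (Lox, culture P) and 13 (Adamts14, culture H), and the standard errors at the low dose vs. untreated ran from 0.17 (Mmp14) to 1.53 (Lox). No paired analysis by replicate number was possible because the labels give letters that the conditions do not share.

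With no factor, the low dose vs. untreated turned for Loxl1 (−1.25), Loxl2 (−0.015), Loxl3 (−0.35), Mmp2 (−0.88), Mmp9 (−0.98), Mmp14 (−0.66) and Adamtsl3 (−0.37), and the high dose vs. untreated for Loxl1 (−1.59), Mmp14 (−0.61) and Adamts14 (−0.39). With letter sets as a block, the low dose vs. untreated turned for Lox (−0.13), Loxl1 (−0.54), Loxl2 (−0.27), Loxl3 (−0.21), Mmp2 (−0.33), Mmp9 (−0.51), Mmp14 (−0.45) and Adamtsl3 (−0.43), and the high dose vs. untreated for Loxl1 (−0.86), Mmp14 (−0.40) and Adamts14 (−0.36). With the block and without G, the high dose vs. untreated turned for Mmp2 (0.67) and Adamtsl3 (0.32). With 2 RUVs factors it turned for Mmp2 (0.52) and Adamts14 (−0.0056), and in DESeq2 for Loxl1 (−0.0018). With 4 RUVs factors, Lox (−0.16) and Mmp9 (−0.088) turned at the low dose vs. untreated and Mmp2 (0.46) at the high dose vs. untreated.

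Without both G and N, the low dose vs. untreated turned for Lox (−0.68), Loxl2 (−0.46), Mmp9 (−0.33), Mmp14 (−0.12) and Adamtsl3 (−0.78), the high dose vs. untreated for Mmp2 (0.84), and the high vs. low dose for Loxl1 (0.23), Mmp2 (0.63), Mmp9 (0.28) and Adamtsl3 (0.72). With the block and without both, the low dose vs. untreated turned for Lox (−0.10), Loxl2 (−0.16), Mmp9 (−0.15) and Adamtsl3 (−0.14), the high dose vs. untreated for Mmp2 (0.61) and Adamtsl3 (0.021), and the high vs. low dose for Loxl1 (0.0026), Mmp2 (0.29), Mmp9 (0.015) and Adamtsl3 (0.16). These models and the 4 factors were chosen after seeing the data.

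With each culture left out in turn, the low dose vs. untreated ranged from −0.65 to 2.09 for Lox, −0.26 to 0.84 for Loxl1, −0.43 to 0.86 for Loxl2, −0.0019 to 0.32 for Loxl3, −0.47 to 1.46 for Mmp2, −0.25 to 0.49 for Mmp9, −0.23 to 0.22 for Mmp14 and −0.64 to 1.86 for Adamtsl3. The high dose vs. untreated ranged from −2.76 to 0.83 for Lox, −0.58 to 0.49 for Loxl1, −0.90 to 1.11 for Mmp2, −0.50 to 0.040 for Mmp9, −0.17 to 0.27 for Mmp14 and −0.20 to 0.17 for Adamts14. The high vs. low dose ranged from −0.98 to 0.084 for Mmp2, −0.62 to 0.034 for Mmp9, −0.069 to 0.24 for Mmp14 and −2.00 to 0.27 for Adamtsl3. Of the 27 fold changes, 8 turned without A, 8 without N, 6 without P and 1 to 3 without each other culture, with 1 without G.

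The difference of mean log2(CPM + 1), for which G was the only culture left out, turned without it at the low dose vs. untreated for Lox (0.33), Loxl1 (0.55), Loxl2 (0.29), Loxl3 (0.26), Mmp2 (0.72), Mmp9 (0.31), Mmp14 (0.14) and Adamtsl3 (0.54), and at the high dose vs. untreated for Loxl1 (0.33), Mmp2 (0.54), Mmp9 (0.015), Mmp14 (0.26) and Adamts14 (0.079). With a pseudocount of 0.1, Lox at the low dose vs. untreated turned to 0.0058.

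The number of members with an unadjusted p under 0.05 was 0 in each comparison. For the low dose vs. untreated, the high dose vs. untreated and the high vs. low dose, it was 3, 2 and 2 of 9 with the block and without G (all genes 7.54%, 9.43% and 13.6%) and 0, 0 and 2 in DESeq2 (1.03%, 1.61% and 1.74%). It was 2, 3 and 5 with 4 RUVs factors (9.85%, 10.9% and 18.9%), 0, 1 and 1 without G and N (2.76%, 3.35% and 7.12%), and 1, 3 and 1 with the block and without both (4.97%, 11% and 14.7%). With each culture left out in turn it ranged from 0 to 1 (all genes 0.493% to 3.86%), 0 to 1 (0.575% to 4.05%) and 0 to 3 (0.761% to 4.24%). The members were not tested against these shares.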
